A study of Mus musculus with 6 samples.

Results

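The mitochondrial genome of the mouse encodes a small set of proteins, and the transcripts of these genes are the subject here. The members were every gene whose position in the deposited table is on the mitochondrial chromosome, which gave 13 of 34745 genes. All 13 are protein-coding. The GENCODE M21 annotation of the same build (GRCm38) also places 2 rRNA and 22 tRNA genes on this chromosome, and 0 of those are among the members, so that only mRNAs were compared.

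RNA of whole liver was sequenced from WT mice that had received an overdose of acetaminophen (APAP, 300 mg/kg, intraperitoneal, sampled after 12 h) and from WT mice that had received saline. All mice had been fasted for 12 h, and the Methods name male C57BL/6J mice aged 8 to 10 weeks. The samples comprise 3 livers per group, of which 2 APAP libraries (replicates 1 and 3) and 3 libraries named WT1, WT2 and WT3 were analysed. Only the APAP libraries carry the treatment in their names, so the WT libraries were taken to be the saline group, an assumption behind every difference below.

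The total count was between 13378445 and 15976339 per library. Within a group, counts of any 2 libraries differed beyond sampling noise (chi-square of 46.97 to 100.3 for each degree of freedom), and each library was used as a separate sample, so that p-values measure the spread between these libraries, which may be technical. Sex-linked genes separated the groups. Xist, the RNA that coats an inactive X chromosome, was at 0.763 and 1.73 CPM (read counts scaled to a common library size) with APAP, against 289, 913 and 881 CPM with saline, and the Y-linked gene Ddx3y had 0, 0 and 1 counts in the saline libraries against 78.9 and 61.6 CPM with APAP. By these genes the saline libraries look female, against the male sex that the Methods name. No value here shows from which mice they came. Sex and treatment therefore cannot be told apart as sources of any difference below, on whichever chromosome a gene lies. Hepatocyte markers summed to 83558 and 130742 CPM with APAP and to between 130619 and 184386 CPM with saline. Of 8, 0 had an adjusted p under 0.05 in edgeR's quasi-likelihood test, against 7.23% of all genes. At an unadjusted p under 0.05, 2 were lower, against 11.8% of all genes. The likelihood ratio test called 1 and DESeq2 2, against 13.4% and 15.2% of all genes. The median log2 fold change of the 8 was −0.67, against 0.03 over all genes. In 4 the APAP libraries lay below all saline libraries, against 20.1% of all genes, and in 1 above them. Neutrophil markers summed to between 84.0 and 129 CPM with APAP and between 5.38 and 9.41 CPM with saline. Camp and Ly6g had 0 counts in all saline libraries. Of the 10 tested (of 11), 8 were called higher, against 3.7% of all genes. A marker at or near 0 counts with saline can pass the filter on low counts only through the APAP libraries, where it is high. For such a marker a call higher was favored in advance, so these calls are a description only. Calls among the other markers were 2 of 6 for monocytes, 1 of 5 for stellate cells and 1 of 4 for bile duct cells. All were higher, against the same 3.7% of all genes. The likelihood ratio test and DESeq2 each called 3, 1 and 3 of these. All 4 bile duct markers had an unadjusted p under 0.05 in edgeR's quasi-likelihood test, against 3414 of all 13734 genes tested in either direction. Kupffer, endothelial, lymphocyte and erythroid markers gave no adjusted p under 0.05 in the quasi-likelihood test. At an unadjusted p under 0.05 there were 1 of 7, 1 of 5, 0 of 1 and 0 of 5 tested, beside the same share of all genes. The likelihood ratio test and DESeq2 each called 1 gene of these lists, in the Kupffer list. Only 1 of the 5 lymphocyte markers passed the filter on low counts and was tested. The part of these markers in the mitochondrial values was not tested.

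Mitochondrial DNA is transcribed from both strands into long precursors, from which mRNAs are released, mostly by cleavage at the tRNAs that lie between them. The encoded proteins are core subunits of complexes I, III and IV of the respiratory chain and of the ATP synthase. Nuclear-encoded subunits complete these complexes, and complex II has nuclear-encoded subunits only. In hepatocytes, which are rich in mitochondria, a reactive metabolite of APAP is known to bind mitochondrial proteins and to impair respiration.

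The arrangement of the genes bears on how reads were assigned. Of the 13 genes, 12 lie on the plus strand and mt-Nd6 lies alone on the minus strand. Guanine made up 28.1% of the mt-Nd6 mRNA and between 5.88% and 16.1% of the other 12. On their 3′ side, 7 mRNAs are followed by a tRNA gene of the same strand, 1 by a tRNA gene of the other strand and 5 by another mRNA. Among the 13 members, the annotated genes overlap at 4 places. The sequences below, from the GENCODE M21 transcripts (GRCm38), show the longest of these on the same strand and the only 1 between strands. The capitals mark the bases that both genes of a pair contain.
mt-Atp8, last 60 bases, chrM:7910-7969, plus strand: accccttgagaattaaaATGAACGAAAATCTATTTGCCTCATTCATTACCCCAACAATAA
mt-Atp6, first 60 bases, chrM:7927-7986, plus strand: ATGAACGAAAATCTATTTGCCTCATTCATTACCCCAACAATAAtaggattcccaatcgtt
mt-Nd5, last 60 bases, chrM:13506-13565, plus strand: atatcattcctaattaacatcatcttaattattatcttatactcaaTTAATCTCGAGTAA
mt-Nd6, last 60 bases, chrM:13552-13611, minus strand: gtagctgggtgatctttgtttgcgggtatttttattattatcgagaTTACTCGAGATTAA
The mt-Atp8 and mt-Atp6 genes share 43 bases, and the start codon of mt-Atp6 lies inside mt-Atp8. The 3′ ends of mt-Nd5 and mt-Nd6 share 14 bases, whose sequence is the reverse complement of that in the other gene. Reads that fall within these 14 bases cannot be assigned without strand, and the strand setting of the count is not given in the sources used here. If the count ignored strand, reads from precursors of the opposite strand would also be counted for a gene over its full length. How far this bears on the low counts of mt-Nd6, and on any ratio to them, was not tested.

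A further feature is shared by mt-Co3, mt-Nd4 and mt-Cytb, the 3 members whose annotated sequence ends in an incomplete stop codon. Their last 30 bases are shown beside those of mt-Co1, which has a complete stop codon, with the bases after the last full amino acid codon in capitals. In mitochondria such a codon is known to be completed by the poly(A) tail. The annotated 3′ ends of mt-Nd1 and mt-Nd2 overlap the tRNA gene that follows on the same strand. The ends of their released mRNAs were not examined.
mt-Co3, chrM:9361-9390, plus strand: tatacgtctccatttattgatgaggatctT
mt-Nd4, chrM:11515-11544, plus strand: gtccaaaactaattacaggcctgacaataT
mt-Cytb, chrM:15259-15288, plus strand: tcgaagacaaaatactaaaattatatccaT
mt-Co1, chrM:6843-6872, plus strand: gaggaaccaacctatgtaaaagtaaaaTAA
The log2 fold changes of these 3 mRNAs (−0.93, −0.87 and −0.84) lay within the range of the other members.

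Mitochondrial mRNAs were among the most abundant transcripts of the liver. By mean count, 9 of the 13 were among the 25 highest genes of the table and 12 among the 100 highest, while mt-Nd6 was at rank 1305. They made up 10.3% and 10.4% of all counts with APAP, and 16.4%, 13.6% and 11.5% of those with saline (WT1, WT2 and WT3 in that order, as in all values below). The 95% Wilson intervals of these shares, which cover counting error only, reached at most 0.0192 percentage points to either side. Both APAP libraries lay below all saline libraries, and the saline libraries themselves spread over 4.91 percentage points. The mean share was 10.3 ± 0.0801% (SD, n = 2) with APAP and 13.9 ± 2.46% (SD, n = 3) with saline, a difference of −3.52 percentage points. An exact permutation test over libraries (two-sided, the smaller tail doubled) gave p = 0.2. This is the smallest value that this form of the test allows for 2 against 3 libraries. Without WT1 the difference was −2.24 percentage points. In RNA from whole liver, fewer cells of a type and less mitochondrial RNA per cell cannot be told apart.

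After normalization for library composition (TMM), the 13 mRNAs together were at 80653 and 95184 CPM with APAP, against 209562, 139165 and 122606 CPM with saline. WT1 was the highest library for each of the 13 genes. All 13 had a fitted log2 fold change below 0, as had 48% of all genes tested, but with scaling to library size only mt-Nd5 was at 0.14. In 12 of the 13 the APAP libraries lay below every saline library, as did 20.1% of all genes tested. The median log2 fold change was −0.93, against 0.03 over all genes. Scaled to library size only, the 2 medians were −0.52 and 0.42, and in that as in each other setting tried all 13 lay below the median of all genes.

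**Figure D1:**
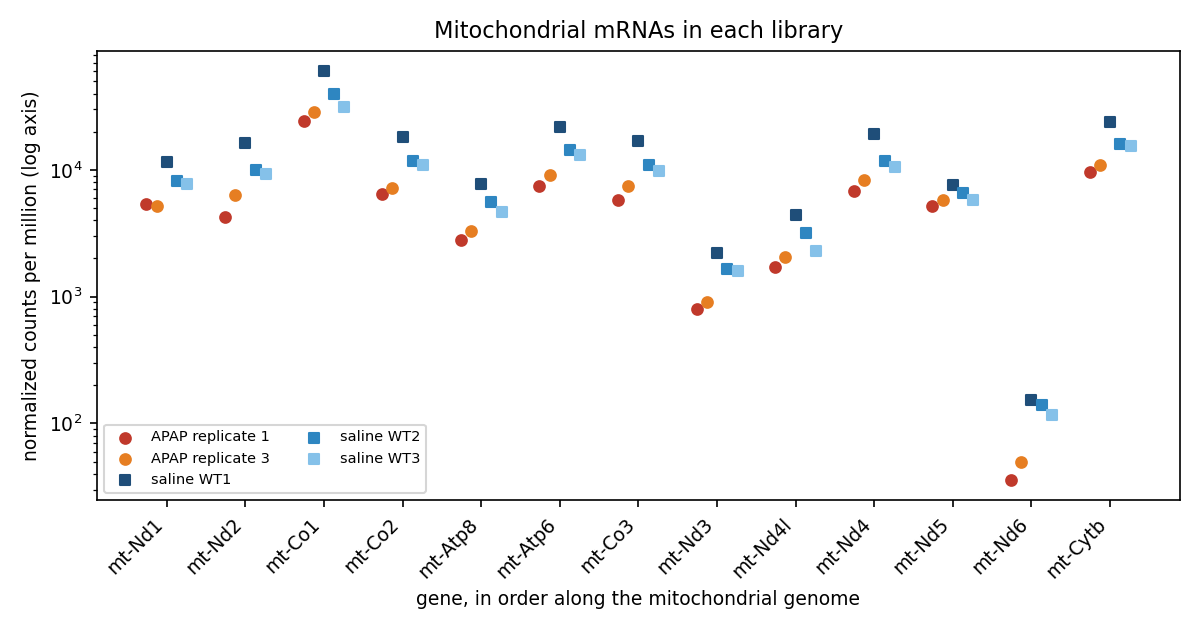
Normalized counts (CPM, log axis) of the 13 mitochondrial mRNAs in order along the genome, with 1 point per library (circles, APAP replicates 1 and 3; squares, saline WT1, WT2 and WT3). The circles lie below all squares for every gene except mt-Nd5, and mt-Nd6 lies far below the other 12.

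Only 1 of the 13 passed the test. With edgeR's quasi-likelihood test and Benjamini-Hochberg adjustment over 13734 genes, mt-Nd6 was called lower, against 3.53% of all genes called in that direction. At the study's thresholds (1.5-fold or more, unadjusted p under 0.05) mt-Nd2, mt-Atp8, mt-Nd3 and mt-Nd6 were lower, against 11.2% of all genes. These cutoffs were applied to the quasi-likelihood test, so the genes that pass need not be those that the study counted. The number of members with an adjusted p under 0.05 depended on the tool. It was 3 by edgeR's likelihood ratio test (mt-Nd2, mt-Nd3 and mt-Nd6), which called 6.33% of all genes lower, and 9 by DESeq2 (all but mt-Co1, mt-Nd4l, mt-Nd4 and mt-Nd5), which called 8.41% of all genes lower.

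**Figure D2:**
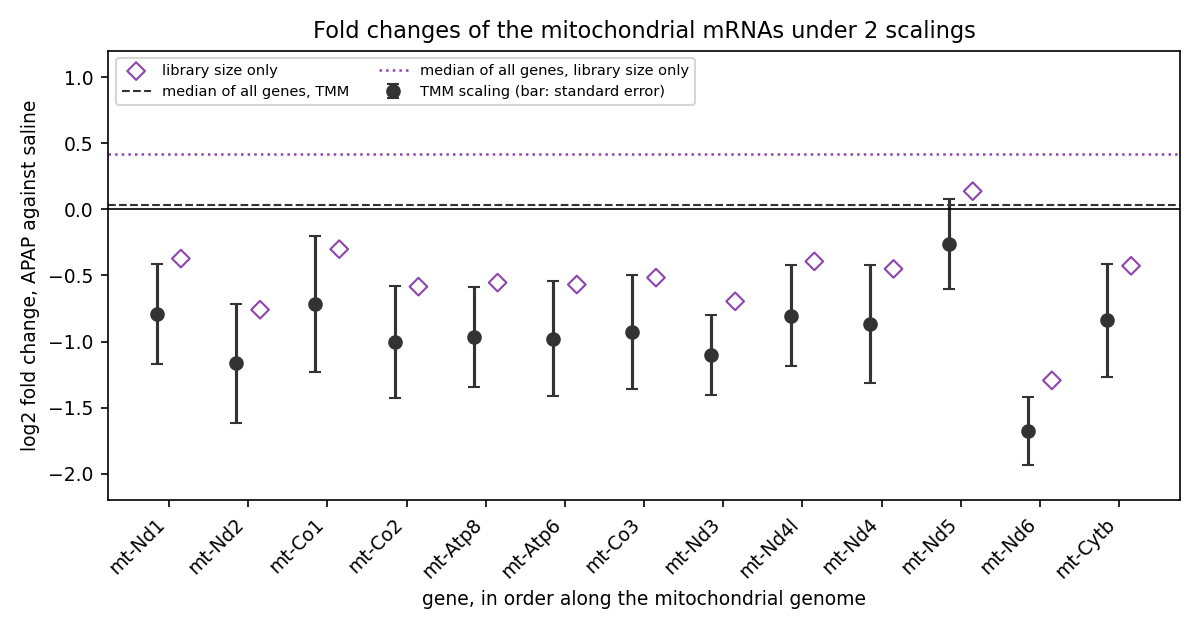
Fitted log2 fold changes of the 13 mRNAs, APAP against saline, with TMM scaling (black points, bars are the standard error) and with scaling to library size only (open diamonds). The dashed and dotted lines are the medians of all genes under each scaling, 0.03 and 0.42. All 13 lie below the median of their scaling, and mt-Nd5 lies above 0 with library size only.

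Complex I takes electrons from NADH, and 7 of its core membrane subunits are mitochondrially encoded. Together these were at 24163 and 28617 CPM with APAP, against 61248, 41325 and 37194 CPM with saline. The 7 mRNAs did not move alike, and they held both the lowest log2 fold change of the 13 (mt-Nd6, −1.68) and the highest (mt-Nd5, −0.26).

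The mRNA of mt-Nd6, a small membrane subunit (ENSMUSG00000064368, chromosome MT of GRCm38, 13552 to 14070), was at 36.0 and 49.4 CPM with APAP. It was at 153, 140.0 and 117 CPM with saline, so that the highest APAP library lay well below the lowest saline library. The raw counts were 613 and 800 against 1709, 2110 and 1753. The means were 42.7 ± 9.49 CPM (SD, n = 2) and 137 ± 18.2 CPM (SD, n = 3). mt-Nd6 fell by 1.68 on the log2 scale (standard error 0.26), and its adjusted p in edgeR's quasi-likelihood test was 0.0162. The call was lost without APAP replicate 1 and without the saline library WT2. Without WT2 the adjusted p was 0.0791 and the log2 fold change −1.66, and all genes called fell from 993 to 165. What lay behind the lost calls was not tested. Without WT1 or WT3 the adjusted p was 0.0388 and 0.0207. The log2 fold change stayed between −1.94 and −1.46 with any library left out. With library size only it was −1.29 (adjusted p = 0.0212). The labels name an oligo(dT) primer and an mRNA library kit, and the mt-Nd6 mRNA is known from human cells to lack a long poly(A) tail, so that its level relative to the other 12 in such libraries need not be that in the liver.

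Its neighbor mt-Nd5 (11742 to 13565), a proton-pumping subunit and the longest of the 13 genes, was the only member whose groups overlapped. It was at 5221 and 5808 CPM with APAP, against 7528, 6534 and 5764 CPM with saline, so that APAP replicate 3 lay above WT3. The log2 fold change was −0.26 (standard error 0.34), with edgeR's adjusted p at 0.686.

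The other proton-pumping subunits were mt-Nd2 (3914 to 4951) and mt-Nd4 (10167 to 11544). mt-Nd2 was at 4218 and 6289 CPM with APAP, against 16226, 9903 and 9218 CPM with saline, and the log2 fold change was −1.17 (standard error 0.45, edgeR adjusted p = 0.171). By ratio, the APAP libraries differed more from each other here than for any other member. mt-Nd4 was at 6823 and 8272 CPM with APAP, against 19105, 11747 and 10482 CPM with saline (log2 fold change −0.87). For mt-Nd1 (2751 to 3707), which lies near the quinone-binding site of the complex, the values were 5366 and 5218 CPM against 11596, 8179 and 7698 CPM (log2 fold change −0.79).

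Among the small subunits, mt-Nd3 (9459 to 9806) had the smallest p after mt-Nd6. It was at 792 and 911 CPM with APAP, against 2216, 1658 and 1605 CPM with saline. The log2 fold change was −1.10 (standard error 0.30) with an unadjusted p of 0.00882 and an adjusted p of 0.0794 in edgeR's quasi-likelihood test. mt-Nd4l (9877 to 10173) was at 1707 and 2070 CPM with APAP, against 4425, 3165 and 2310 CPM with saline (log2 fold change −0.81), and WT3 lay close to the higher APAP library.

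Complex III passes electrons from ubiquinol to cytochrome c, and mt-Cytb (14145 to 15288), its heme-carrying cytochrome b, is its single mitochondrially encoded subunit. mt-Cytb was at 9570 and 11000.2 CPM with APAP, against 23653, 15992 and 15547 CPM with saline. The groups did not overlap, and the log2 fold change was −0.84 (standard error 0.43, edgeR adjusted p = 0.282).

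Complex IV reduces oxygen to water. Its catalytic subunit mt-Co1 (5328 to 6872) was the most abundant member, at 24415 and 28530.4 CPM with APAP, against 60038, 39378 and 31306 CPM with saline. The saline libraries spread by more than the gap between the groups. The same held for every other member without overlap except mt-Nd3 and mt-Nd6. For mt-Co1 the log2 fold change was −0.72 (standard error 0.52, edgeR adjusted p = 0.441). For mt-Co2 (7013 to 7696), which takes electrons from cytochrome c, the values were 6411 and 7228 CPM against 18269, 11776 and 10934 CPM (log2 fold change −1.002). mt-Co3 (8607 to 9390), a core subunit without a metal center, was at 5792 and 7396 CPM with APAP, against 16960.0, 10841 and 9845 CPM with saline (log2 fold change −0.93).

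The ATP synthase uses the proton gradient to make ATP. mt-Atp6 (7927 to 8607), which forms part of its proton channel, was at 7481 and 9094 CPM with APAP, against 21677, 14275 and 13115 CPM with saline (log2 fold change −0.98). mt-Atp8 (7766 to 7969), a short subunit beside it, was at 2822 and 3318 CPM with APAP, against 7717, 5577 and 4666 CPM with saline (log2 fold change −0.96). These overlapping genes, shown above by their shared bases, are carried by 1 mRNA and their fold changes differed by little. Over the 11 members other than mt-Nd5 and mt-Nd6, the APAP mean was between 44.6% and 60.8% of the saline mean, and edgeR's adjusted p was between 0.0794 and 0.441.

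Counts within a library need no scaling between libraries, so the make-up of the mitochondrial mRNA pool was compared next. The share of each gene in the sum of the 13 was computed per library. APAP libraries lay below all saline libraries for 7 shares, above them for 2 (mt-Nd5 and mt-Co1), and the groups overlapped for 4. The smallest exact permutation p was 0.2, again the smallest that the doubled tail allows for 2 against 3 libraries, and it was 0.289 adjusted over the 13. mt-Nd5 took 6.47% and 6.10% of the pool with APAP and 3.59%, 4.70% and 4.70% with saline. Its mean share was 1.45-fold higher with APAP. The share of mt-Nd6 was 0.0446% and 0.0519% with APAP and 0.0730%, 0.101% and 0.0954% with saline, a mean 1.86-fold lower with APAP. mt-Co1 took 30.3% and 29.97% of the pool with APAP and 28.6%, 28.3% and 25.5% with saline, a difference smaller in proportion. The sum of the 13 was also used as library size in edgeR's quasi-likelihood test, with adjustment over all genes tested and not over the 13. In that test 0 of the 13 had an adjusted p under 0.05 and 2 had an unadjusted p under 0.05. These were mt-Nd5 (log2 fold change 0.54, adjusted p = 0.106) and mt-Nd6 (−0.89, adjusted p = 0.0943). The share of all genes called in this fit is not given here. The likelihood ratio test and DESeq2 were not run on the composition.

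The 2 mRNAs whose 3′ ends overlap on opposite strands were then set against each other. This ratio was chosen after its values were seen, and no test is given for it. There were 145 and 118 mt-Nd5 counts per mt-Nd6 count with APAP and 49.2, 46.7 and 49.3 with saline. The 3 saline libraries differed by little, although their mitochondrial shares of all counts differed widely, and the APAP libraries were far above them.  Against mt-Cytb, the next mRNA on the plus strand, mt-Nd5 was at 0.546 and 0.528 counts per count with APAP and at 0.318, 0.409 and 0.371 with saline. In contrast, pairs carried by 1 mRNA kept similar ratios in both groups. There were 0.377 and 0.365 mt-Atp8 counts per mt-Atp6 count with APAP and 0.356, 0.391 and 0.356 with saline, and 0.2502 and 0.2503 mt-Nd4l counts per mt-Nd4 count with APAP and 0.232, 0.269 and 0.220 with saline. Both of these ratios overlapped between the groups.

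**Figure D3:**
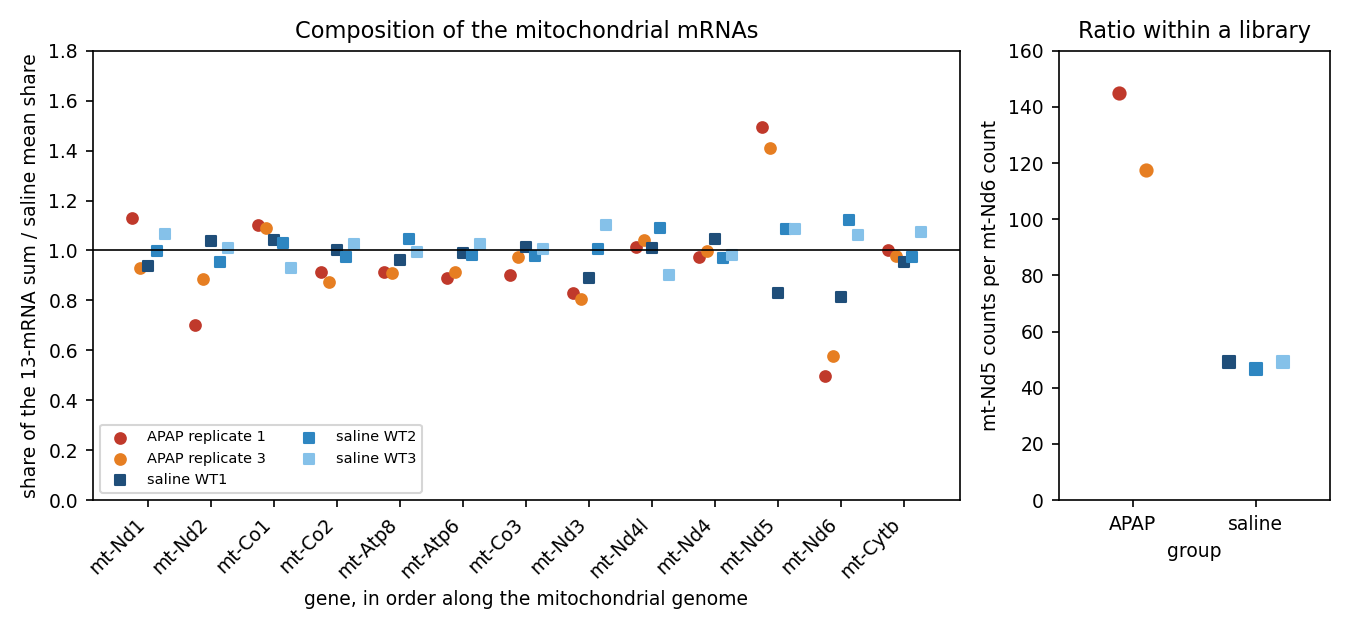
Left, the share of each gene in the sum of the 13 mitochondrial mRNAs, divided by its mean share in saline, with 1 point per library. Right, mt-Nd5 counts per mt-Nd6 count in each library. mt-Nd5 lies above and mt-Nd6 below the other members in both APAP libraries, and the ratio is 118 and 145 with APAP against 46.7 to 49.3 with saline.

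Levels of different members were compared per kilobase of gene (CPM per kb). mt-Co1 and mt-Atp8 led, at 17134 ± 1884 and 15048 ± 1719 CPM per kb with APAP (SD, n = 2) and at 28203 ± 9591 and 29347 ± 7678 CPM per kb with saline (SD, n = 3), and their order was not settled, with mt-Co1 above mt-Atp8 in 3 of 5 libraries. mt-Atp6, mt-Co2 and mt-Cytb followed in that order in all 5 libraries, and mt-Cytb lay above mt-Co3 in 4 of 5. The complex I mRNAs were the lowest group. mt-Nd4l lay above mt-Nd2 in 3 of 5 libraries, mt-Nd2 above mt-Nd4 in 4 and mt-Nd4 above mt-Nd1 in 2, so that these neighbors did not keep 1 order. mt-Nd3 and mt-Nd5 exchanged places between the groups. mt-Nd3 was at 2447 ± 241 CPM per kb with APAP and 5248 ± 973 CPM per kb with saline, and mt-Nd5 was at 3023 ± 227 and 3623 ± 485 CPM per kb. mt-Nd6 was lowest in all 5 libraries, at 82.3 ± 18.3 CPM per kb with APAP and 263 ± 35.2 CPM per kb with saline. Overlapping and shared bases were counted in the length of each gene.

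Parts of the mitochondrial genome have been copied into nuclear chromosomes, and reads of a mitochondrial mRNA can be assigned to such a copy. In GENCODE M21, 15 nuclear genes shared at least 1 word of 50 bases with mitochondrial transcripts, and 12 of them are in the table. Their summed counts came to 4.61% and 4.90% of the mitochondrial counts with APAP and to 5.40%, 4.62% and 4.71% with saline, so that the groups overlapped. The 5 with the highest counts were Gm10925, Gm28661, Gm28437, Gm29216 and Gm28439, whose closest members are mt-Atp6, mt-Co2, mt-Co3, mt-Co1 and mt-Nd4. Of the 12, 7 had at least 95% of their words in mitochondrial transcripts, and all 7 are on chromosome 1. The 7 had log2 fold changes between −1.07 and −0.77 with a median of −0.91, close to those of the members they resemble, and their counts are uncertain for that reason.

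**Figure D4:**
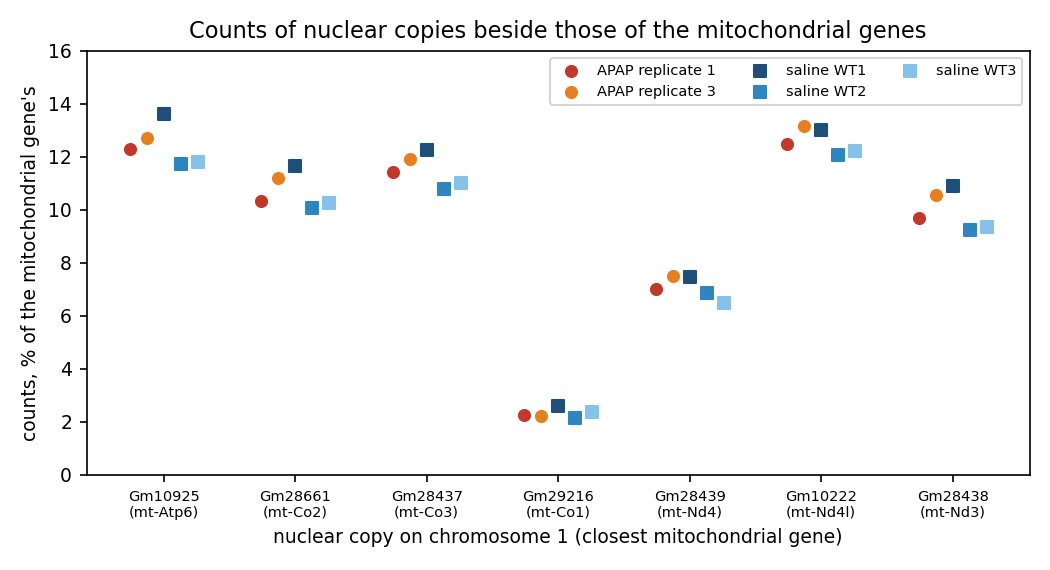
Counts of the 7 nuclear genes on chromosome 1 with at least 95% of their 50-base words in mitochondrial transcripts, as a percentage of the counts of the closest mitochondrial gene, with 1 point per library. The percentage differs between genes and little between the groups.

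Members with little shared sequence were read apart. In 6 members (mt-Nd1, mt-Nd2, mt-Atp8, mt-Nd5, mt-Nd6 and mt-Cytb) under 10% of the 50-base words occur in nuclear transcripts, and their median log2 fold change was −0.90. In the other 7, between 51.1% and 100% occur there, and the median was −0.93. mt-Nd6 shared no word. With the counts of the 7 copies added to their closest members, the median over the 13 was −0.93 and mt-Nd6 was still the only member with an adjusted p under 0.05 in edgeR's quasi-likelihood test.

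Nuclear-encoded partners were read from 12 lists of genes for the same complexes and for the upkeep and expression of mitochondrial DNA. Of 184 genes, all tested, 4 had an adjusted p under 0.05 in edgeR's quasi-likelihood test, 2 higher and 2 lower, against 7.23% of all genes. The likelihood ratio test called 8, against 13.4% of all genes, and DESeq2 called 29, against 15.2%. The study's thresholds were passed by 46, against 23.5% of all genes. Over these lists the median log2 fold change was −0.31.

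The nuclear-encoded subunits of complexes I to V were mostly at lower levels with APAP. Of 79 subunits, complex II included, 75 had a fitted log2 fold change below 0, against 48% of all genes, with a median of −0.54. In edgeR's quasi-likelihood test 0 had an adjusted p under 0.05 and 32 had an unadjusted p under 0.05, all 32 lower, against 11.8% of all genes. The likelihood ratio test called 2 and DESeq2 19, against 13.4% and 15.2% of all genes. In 60 of the 79 the APAP libraries lay below all saline libraries, against 20.1% of all genes. The medians were −0.65 for complex I, −0.76 for complex II, −0.50 for complex III, −0.44 for complex IV and −0.36 for the ATP synthase. Sdha, the flavoprotein of complex II, was at 219.9 and 290.1 CPM with APAP, against 471, 427 and 417 CPM with saline (log2 fold change −0.78, edgeR adjusted p = 0.113). Atp5b, the catalytic subunit of the ATP synthase, was at 619 and 729 CPM against 1111, 920.1 and 989 CPM (−0.58). Uqcrq of complex III was at 132 and 175 CPM against 288, 207 and 187 CPM (−0.57). Cox4i1 of complex IV overlapped between the groups, at 172 and 202 CPM with APAP and 361, 238 and 148 CPM with saline.

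The ratio of mitochondrial to nuclear counts within each complex is free of scaling between libraries, and is given as a description. Complex I had 16.9 and 17.9 mitochondrial counts per nuclear count with APAP and 22.3, 19.5 and 17.9 with saline. The APAP libraries lay below the saline libraries, but WT3 was nearly at the level of APAP replicate 3. The ATP synthase was separated more widely, at 4.55 and 4.996 with APAP and at 7.68, 6.69 and 6.04 with saline. Complex III was at 10.1 and 10.4 against 14.4, 12.3 and 12.5, and complex IV at 36.4 and 39.6 against 51.8, 45.3 and 43.0. The saline mean was between 1.15-fold (complex I) and 1.43-fold (ATP synthase) of the APAP mean.

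Genes that transcribe and process mitochondrial RNA had list medians of −0.21 and 0.08 on the log2 scale. Beside the counts that follow, 3414 of all 13734 genes tested had an unadjusted p under 0.05 in edgeR's quasi-likelihood test. Of 11 transcription genes, 0 had an adjusted p under 0.05 in edgeR's quasi-likelihood test. An unadjusted p under 0.05 was found for 1, a gene of low counts that was higher with APAP (log2 fold change 2.25). The likelihood ratio test and DESeq2 called 1 each. Tfam, which packages mitochondrial DNA and starts its transcription, was at 49.4 and 45.6 CPM with APAP, against 56.6, 42.6 and 44.7 CPM with saline (log2 fold change −0.01), and the ribosomal protein Mrpl12 was at 89.4 and 76.4 CPM against 121.5, 84.8 and 83.2 CPM (−0.22). Of 31 genes of RNA processing, modification and turnover, 0 had an adjusted p under 0.05 in that test, 4 had an unadjusted p under 0.05, and the likelihood ratio test and DESeq2 called 1 each. Grsf1, a protein of mitochondrial RNA granules, was at 79.8 and 76.4 CPM with APAP, against 134, 106 and 112 CPM with saline (−0.59, edgeR adjusted p = 0.152), and the processing enzyme subunit Hsd17b10 was at 94.7 and 85.03 CPM against 119, 68.0 and 68.7 CPM (0.08).

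Further lists gave few calls. Over all genes tested, 3414 of 13734 had an unadjusted p under 0.05 in edgeR's quasi-likelihood test. Calls at an adjusted p under 0.05 were 7.23% of all genes in that test, 13.4% by the likelihood ratio test and 15.2% by DESeq2. Of 15 genes of mitochondrial DNA replication and nucleotide supply, 0 had an adjusted p under 0.05 in edgeR's quasi-likelihood test (5 at an unadjusted p under 0.05, 0 by the likelihood ratio test, 1 by DESeq2), and Polg, the mitochondrial DNA polymerase, was at 30.1 and 43.3 CPM with APAP, against 35.4, 37.03 and 48.7 CPM with saline. Of 12 translation factors the same counts were 0, 2, 0 and 0, and the elongation factor Gfm1 was at 76.8 and 67.6 CPM against 69.8, 73.6 and 80.6 CPM. Of 12 enzymes of the citric acid cycle they were 0, 3, 0 and 2, and Ogdh was at 139.8 and 161 CPM against 203, 165 and 224 CPM.

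The 4 partner genes that passed were a deacetylase, a protease subunit and a pair of chaperonins. Among 11 regulators of mitochondrial biogenesis, Sirt3, the mitochondrial deacetylase, fell by 1.62 on the log2 scale, from 83.6, 65.2 and 61.4 CPM with saline to 21.9 and 23.6 CPM with APAP (edgeR adjusted p = 0.0128). Among 13 chaperones and proteases, Clpx, which feeds substrates to the matrix protease ClpXP, fell by 1.65, from 417, 470.3 and 388 CPM to 158 and 114 CPM (edgeR adjusted p = 0.0196). In the list of chaperones Hspd1 (HSP60) rose from 306, 268 and 294 CPM with saline to 816 and 1043 CPM with APAP, a log2 fold change of 1.68 (edgeR adjusted p = 0.0147). Its partner Hspe1 (HSP10) rose from 71.5, 64.8 and 69.7 CPM to 272 and 329 CPM, a log2 fold change of 2.13 (edgeR adjusted p = 0.00471). Leaving out APAP replicate 3 or the saline library WT2 left 1 call among the 12 lists, and leaving out APAP replicate 1 left 2.

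**Figure D5:**
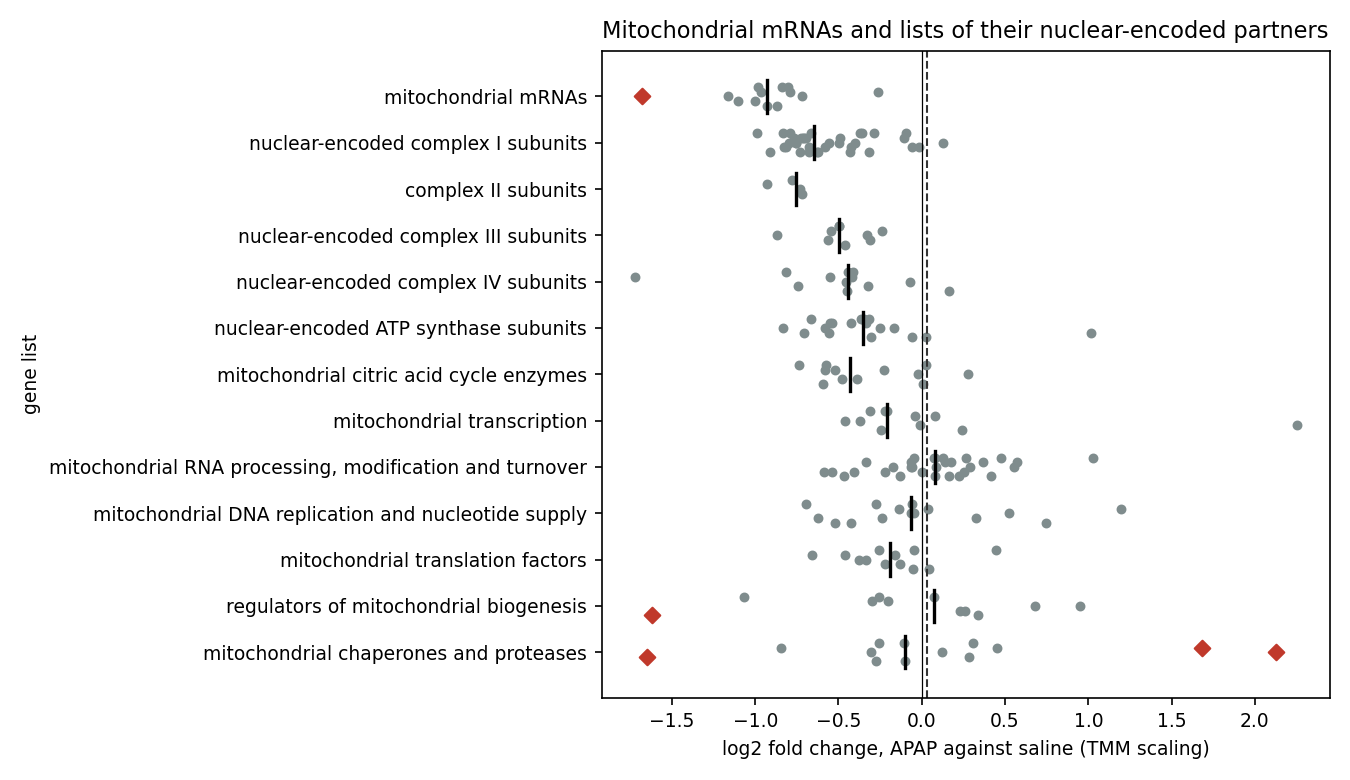
Fitted log2 fold changes (APAP against saline, TMM scaling) of the 13 mitochondrial mRNAs and of the genes of 12 partner lists, with 1 point per gene. Red diamonds are genes with an adjusted p under 0.05, short lines are list medians, and the dashed line is the median of all genes (0.03). The mitochondrial mRNAs have the lowest median, −0.93, and the lists of transcription, RNA processing and translation genes have medians of −0.21, 0.08 and −0.19.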

How the data were processed

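Liver RNA was sequenced on an Illumina NovaSeq platform. The authors deposited raw read counts per gene and library, obtained after alignment with HISAT2, and FPKM values from StringTie in 5 columns that were not used here. The submitters' processing notes name GRCm38 and mm10. The annotation, strand setting and program versions are not given in the sources used here. Of 34745 genes, 34267 identifiers were found in GENCODE M21 and 27695 had identical positions there, as had all 13 members.

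The count table was fitted with edgeR 4.0.16 under R 4.3.3. A filter on low counts (filterByExpr, minimum count 10 in as many libraries as the smaller group holds, minimum total 15) left 13734 genes, which were scaled by TMM (factors 1.27 and 1.09 for APAP, 0.783, 0.980 and 0.938 for saline WT1 to WT3) and compared by the quasi-likelihood test with Benjamini-Hochberg adjustment. The common biological coefficient of variation was 33.3%. DESeq2 1.42.0, the likelihood ratio test, other scalings, other filters and leaving out each library were alternatives. The study's thresholds and the addition of nuclear copies were alternatives chosen after seeing the data. Scripts were tested on simulated counts. Shares were compared by exact permutation tests in Python 3.11.15.

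All 13 members are named. Of each partner list, up to 4 genes with an adjusted p under 0.05 are named, or otherwise the most abundant. A gene that this rule names is not reported here. Members and lists were chosen with earlier results of these data known. The limit of detection was set at 3 counts, which is 0.176 to 0.269 CPM after TMM scaling, depending on the library, and covers counting error only.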

Additional observations from a re-analysis of the deposited data

How the results depend on the processing

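All 13 members kept a fitted log2 fold change below 0 under the alternatives in edgeR and DESeq2, except that mt-Nd5 was at 0.14 with library size only. The number of members with an adjusted p under 0.05 was 3 with the likelihood ratio test and 9 with DESeq2, and 4 members passed the study's thresholds, which use an unadjusted p. The calls among the 12 partner lists were then 8, 29 and 46. The 993 genes called in all became 1835 with the likelihood ratio test and 2093 with DESeq2. With library size only, 77.8% of the called genes were higher, against 51.2% with TMM, and the median over the 13 members moved to −0.52. With each library left out in turn, the members called were between 0 and 1 (0 without APAP replicate 1 or the saline library WT2), the calls among partner lists between 1 and 5, and all genes called between 165 (without WT2) and 922 (without WT3). The median over the 13 was then between −1.10 (without APAP replicate 3) and −0.64 (without WT1). The causes of these shifts were not tested, and each fit with a library left out also had fewer libraries. With a single APAP library left, its spread was taken from the saline libraries. No paired analysis was possible because the names WT1 to WT3 are not matched to the numbered saline samples. Shares of counts that include rRNA and tRNA were not computed, since the members hold neither. The exact permutation p used here doubles the smaller tail and cannot fall below 0.2 with 2 against 3 libraries. The shares and ratios therefore rest on the values alone.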
